A study of Mus musculus with 5 samples.

Results

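The regions described here are promoter-associated stretches of H3K27me3, the trimethylation of lysine 27 on histone H3, that were marked in mouse dermal fibroblasts at both embryonic stages studied, E14.5 and E18.5. They were chosen by the peaks themselves. Overlapping peaks of 4 deposited peak lists were merged on chromosomes 1 to 19, and a merged region was kept when each of the 4 lists held a peak in it, when none of its peaks reached 10000 bp, and when it lay within 3000 bp of a transcript start site of a protein-coding gene in the GRCm38 annotation. This left 2188 of 24721 merged regions. A peak in all 4 lists was found in 4228 regions. Of these, 672 held a peak of 10000 bp or more, 1368 were distal to any start site, and the remaining 2188 are the ones reported. They lie by 2195 protein-coding genes: 1997 have 1 gene in the window, 179 have 2 and 12 have 3 or more. Each is named below by the start site nearest to its middle, of which 2000 different genes supply at least 1.

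The 2 libraries of each stage came from fibroblasts of wild-type skin dermis, expanded in culture, from mice that the study's methods place on a C57BL/6 background, and no other treatment is given for either stage. The labels give the stages as day 14 and day 17, and the names E14.5 and E18.5 follow the study. Nothing in the sources states that replicates 1 and 2 are different embryos or litters, so the spread between them may be technical. The study's methods state that its E18.5 wild-type and *Kdm6b*-knockout samples were reduced to the read number of the other samples before peaks were called. Whether this covers the libraries used here is not stated. The lists themselves hold no read counts, so whether they were made from reduced reads cannot be read from them. The reads behind a single peak are unknown. An input library shared by both stages was not analysed here. The whole lists hold 21546 and 16574 peaks in the E14.5 libraries, and 10429 and 7107 in those of E18.5. None of 9 fibroblast genes (*Col1a1*, *Pdgfra*, *Twist2* and others) had a peak in any list in the 3000 bp around a start site, whereas 3 of 7 keratinocyte genes (*Krt1*, *Epcam* and *Cdh1*), *Kdr* of 4 endothelial genes and *Sox10* of 3 melanocyte and glial genes did in all 4, as did *Myod1* and *Pax7* of 4 muscle genes. With 2 libraries against 2, an exact permutation test cannot give a p below 0.333, so no difference between the stages could pass 0.05.

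H3K27me3 is laid down by Polycomb repressive complex 2, whose catalytic subunit is EZH2 or EZH1, and is removed by the demethylases KDM6A and KDM6B. In mammals the complex is recruited mainly to CpG islands, stretches rich in CpG dinucleotides that surround the start sites of many genes, and the mark spreads from there into the neighbouring chromatin. Genes that carry it around their start site are mostly silent or poised, and in a committed cell they are typically the regulators and effectors of other lineages.

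The sequence that stayed marked and the sequence that did not are shown for 3 regions in which both stretches were long enough, and for 1 exception. In each pair, the first window lies in the longest stretch covered in all 4 lists (kept) and the second in the longest stretch covered in both E14.5 lists and in neither E18.5 list (lost). Windows are 200 bases of GRCm38 at the middle of the stretch and are read 5′ to 3′ on the strand of the gene, with every CpG dinucleotide in capitals. *AI464131*, which encodes a predicted glycosidase, kept a window at chr4:41498825-41499024 (minus strand) in a coding exon and lost one at chr4:41500843-41501042 in an intron. *Rhcg*, an ammonium transporter, kept chr7:79602434-79602633 and lost chr7:79604013-79604212, both in an intron on the minus strand. *Smu1*, a splicing factor gene, kept chr4:40760412-40760611 and lost chr4:40762461-40762660, both on the minus strand, upstream of its start site and outside protein-coding genes. *Sncb*, which encodes beta-synuclein, names a region with no base covered in all 4 lists, and its lost window is chr13:54758304-54758503 (minus strand), downstream of the start site and outside protein-coding genes.
AI464131 kept: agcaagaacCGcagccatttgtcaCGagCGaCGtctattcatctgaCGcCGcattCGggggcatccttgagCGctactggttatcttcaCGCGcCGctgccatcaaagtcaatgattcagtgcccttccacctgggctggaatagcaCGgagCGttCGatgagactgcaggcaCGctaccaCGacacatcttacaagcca
AI464131 lost: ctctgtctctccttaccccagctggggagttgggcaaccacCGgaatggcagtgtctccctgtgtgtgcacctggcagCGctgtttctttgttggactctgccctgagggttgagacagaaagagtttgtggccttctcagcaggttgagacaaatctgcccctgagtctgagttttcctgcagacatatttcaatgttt
Rhcg kept: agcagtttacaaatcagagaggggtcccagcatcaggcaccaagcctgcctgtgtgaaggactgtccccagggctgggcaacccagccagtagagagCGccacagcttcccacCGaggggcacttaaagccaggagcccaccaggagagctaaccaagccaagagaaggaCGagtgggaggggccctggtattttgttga
Rhcg lost: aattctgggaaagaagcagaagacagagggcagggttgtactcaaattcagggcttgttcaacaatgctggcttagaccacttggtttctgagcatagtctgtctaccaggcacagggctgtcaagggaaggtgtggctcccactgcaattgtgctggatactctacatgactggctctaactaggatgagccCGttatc
Smu1 kept: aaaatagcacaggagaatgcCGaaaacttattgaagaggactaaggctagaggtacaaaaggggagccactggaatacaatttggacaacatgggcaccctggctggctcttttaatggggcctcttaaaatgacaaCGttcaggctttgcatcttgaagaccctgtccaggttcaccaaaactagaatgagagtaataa
Smu1 lost: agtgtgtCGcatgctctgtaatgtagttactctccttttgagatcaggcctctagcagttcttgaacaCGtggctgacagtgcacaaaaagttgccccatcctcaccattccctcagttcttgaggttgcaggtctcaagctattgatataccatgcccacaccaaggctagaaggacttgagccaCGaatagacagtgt
Sncb lost: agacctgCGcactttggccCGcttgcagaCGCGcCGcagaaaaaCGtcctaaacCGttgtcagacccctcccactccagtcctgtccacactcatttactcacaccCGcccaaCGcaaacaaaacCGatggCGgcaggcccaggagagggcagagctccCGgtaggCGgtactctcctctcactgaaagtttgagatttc
The kept window held 16 CpG in *AI464131* and 3 in *Rhcg*, where the lost window held 2 and 1. In *Smu1* the order was the reverse, with 2 CpG in the kept window and 3 in the lost one, and the lost window of *Sncb* held 13. Among the regions named for the greatest decreases and the most one-sided losses, 8 allowed both windows, and the kept one held more CpG in 6, fewer in 1 and the same number in 1.

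Covered length, the number of base pairs of a region lying under peaks of one list, was lower at E18.5 in most of these regions. The median region had 4674 bp and 3605.5 bp covered in the E14.5 libraries, but 2408.5 bp and 1802.5 bp in those of E18.5. Summed over the 2188 regions, coverage came to 10.8 and 8.41 Mb for the earlier stage against 6.03 and 4.71 Mb for the later, or 9.59 ± 1.68 Mb against 5.37 ± 0.933 Mb (SD, n = 2 each), a change of -44.0%. Per region, the mean covered length changed by a median of -45.5%, with an interquartile range of -60.1 to -30.6%. In 907 regions (41.5%) it was lower by 50% or more, near the 43.2% of all 4228 autosomal regions with a peak in every list.

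A region is called shorter when both E18.5 values lay below both E14.5 values, longer in the opposite case, and overlapping otherwise. By this rule 1821 of the 2188 regions (83.2%) were shorter, 352 overlapped and 15 (0.686%) were longer. Over all 4228 autosomal regions with a peak in every list, 81.4% were shorter and 0.662% were longer, so the share in the promoter regions is near the background. Because the regions were chosen by the peaks of these same lists, the decrease is a description and was not tested. Within a stage, the second library also lay below the first. Its covered length was lower in 1850 regions at E14.5 (median change -19.7%) and in 1702 regions at E18.5 (-22.1%). The smallest of the 4 differences between stages, from the second E14.5 library to the first E18.5 library, was a median of -28.9% with 1889 regions lower, and the greatest was -58.2% with 2154 lower. For these counts between single libraries, the shares over all 4228 regions were not computed. Whether a difference in depth or enrichment between libraries sets these steps was not tested.

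**Figure D1:**
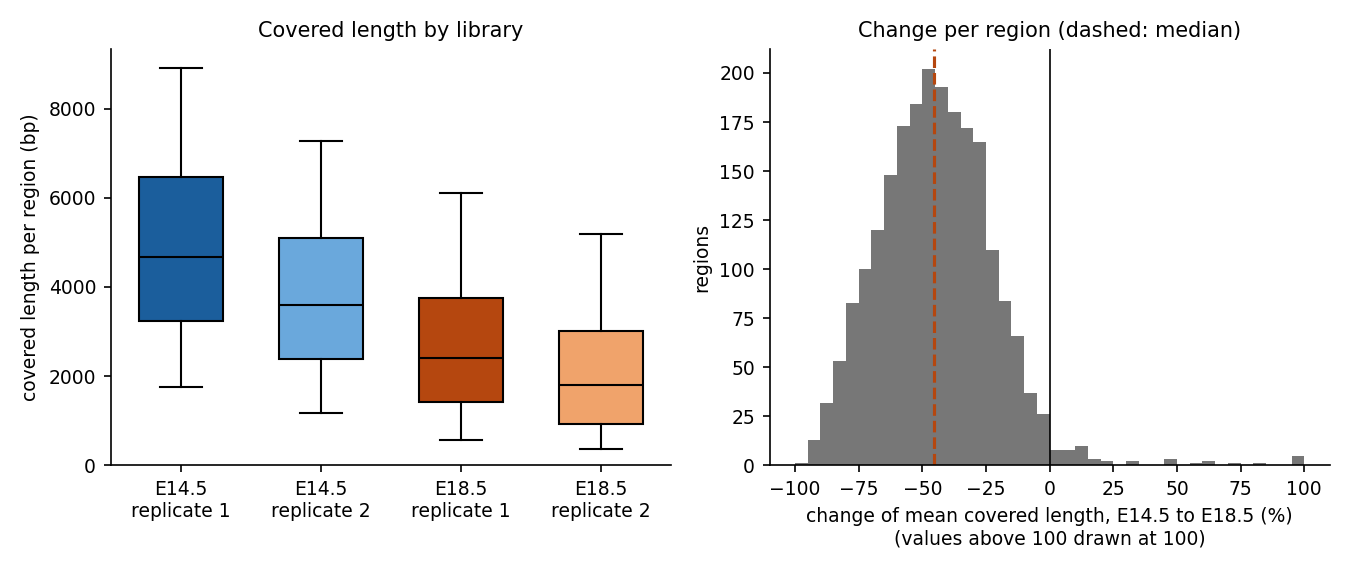
Covered length (bp) of the 2188 regions in each library (left; box, quartiles and median; whiskers, 5th to 95th percentile) and the number of regions by percent change of mean covered length from E14.5 to E18.5 (right). The 4 medians descend from 4674 to 1802.5 bp, and the changes centre on -45.5%.

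The regions with the greatest proportional decreases had only short covered stretches at E18.5. Several of these values lie near the shortest coverage of any region, 194 and 204 bp in the E18.5 libraries. In the values given for single regions from here on, the 2 E14.5 libraries come first and the 2 E18.5 libraries second, each in the order of the replicates. A gene can name more than 1 region, and the values are those of the one region described. At *Jph4*, a junctophilin of neurons that ties the endoplasmic reticulum to the cell membrane, covered length was 8307 and 6281 bp against 196 and 501 bp, a change of -95.2%. At *Vamp1*, a SNARE protein of synaptic vesicles, it was 6656 and 4227 bp against 309 and 469 bp (-92.9%). At *Nxph3*, a secreted ligand of neurexins, it was 6839 and 6793 bp against 458 and 779 bp (-90.9%). In all 3 regions the values of both E18.5 libraries lay far below those of both E14.5 libraries. The same held at *Ifna7*, a type I interferon gene, with 4164 and 2115 bp against 208 and 306 bp (-91.8%), and at *Rhcg*, with 7659 and 4536 bp against 319 and 641 bp (-92.1%). *Fer1l4*, *Efcab14* and *Ccdc144b* complete the 8 greatest decreases, at -93.1%, -93.0% and -90.7%. In 5 of the 8 (*Jph4*, *Efcab14*, *Vamp1*, *Nxph3* and *Ccdc144b*) no base was covered in all 4 lists. Over all regions this was the case in 76 (3.47%).

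At the other end, several regions that were broadly covered at E14.5 had nearly the same length at E18.5. *Mab21l2*, a gene of eye and body wall development, had 9152 and 7937 bp against 9030 and 7999 bp (-0.351%). *Fgf9*, a fibroblast growth factor, had 9401 and 8075 bp against 8350 and 8991 bp (-0.772%), and *Dhh*, the Desert hedgehog ligand, had 7186 and 6453 bp against 5931 and 7497 bp (-1.55%). In these 3 the values of the stages interleaved. The remaining 5 included *Elavl2*, a neuronal RNA-binding protein (6288 and 5408 bp against 6490 and 5003 bp), *Dlgap2*, a postsynaptic scaffold (7684 and 7297 bp against 7224 and 7273 bp), and the adaptor gene *Shc3* (5439 and 4151 bp against 4524 and 4892 bp), beside *Hs3st4* and *Lmcd1*.

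Longer regions were few, and the greatest increases in percent, a measure that favours short regions, were at regions with little coverage at E14.5. *Hs3st3b1*, a heparan sulfate sulfotransferase, had 312 and 571 bp against 1508 and 1163 bp (+202%). *Ctnnd2*, which encodes delta-catenin, had 677 and 844 bp against 2422 and 1574 bp (+163%). *Cd24a*, a cell-surface glycoprotein, had 796 and 502 bp against 1732 and 1207 bp (+126%). Among the 8 greatest increases, only *Abcb1a*, an efflux transporter (984 and 1188 bp against 1568 and 2146 bp), and *Mycn*, a Myc family transcription factor (1124 and 1667 bp against 2338 and 2175 bp), had more than 1000 bp on average at E14.5. *Gja5*, the gap junction protein connexin 40, *Itgb8*, an integrin, and *Nars2*, a mitochondrial asparaginyl-tRNA synthetase, changed by +121%, +105% and +61.3%. Not all 15 longer regions were short at E14.5, as *Kcna6* had 3150 and 2714 bp there. Bases covered in both E18.5 lists and in neither E14.5 list added up to 0.0173 Mb in 57 regions, against 2.09 Mb lost in 2025 regions.

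**Figure D2:**
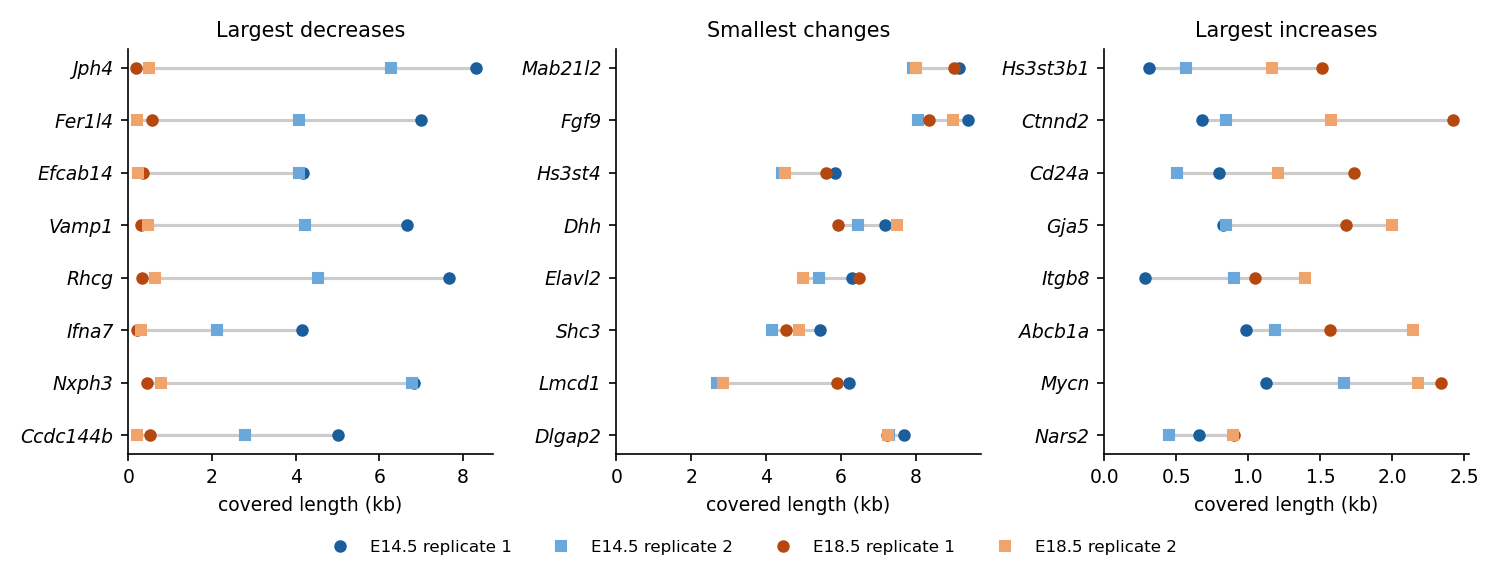
Covered length (kb) in each of the 4 libraries for the 8 regions with the greatest percent decrease, the 8 with the smallest change and the 8 with the greatest increase. Values at *Jph4* fall from 8307 and 6281 bp to 196 and 501 bp, the stages interleave at *Fgf9*, and *Hs3st3b1* has at most 571 bp in the E14.5 libraries and at least 1163 bp in the others.

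The thresholds of the rule cut through a continuous range. The widest peak was 9996 bp at *Elfn2*, 9989 bp at *Cldn23* and 9976 bp at *Fam135b*, just inside the limit, and their covered lengths changed by -43.5%, -49.4% and -60.1%. It was 10013 bp at *Kcnk15* and 10025 bp at *Tmem56* and *Wnt9b*, just outside, with changes of -11.9%, -46.6% and -40.0%. *Cldn14*, *Ap2a1* and *Fam234a* lay 2985, 2980 and 2933 bp from the region, just inside the window, and *Farsb*, *Mrpl11* and *Ccnd2* lay 3004, 3034 and 3048 bp away, just outside it.

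Coverage was highest on the downstream side of the start site in every library. In the E14.5 libraries it was highest between 900 and 1000 bp downstream (83.3% of regions covered) and between 700 and 800 bp downstream (79.1%), and in both E18.5 libraries between 600 and 700 bp downstream (67.1% and 59.4%). The E14.5 curves also had a lower upstream maximum, at 77.0% from 600 to 500 bp upstream and 68.6% from 500 to 400 bp upstream, and dipped in both libraries within 200 bp upstream of the start site (to 74.9% in the first), whereas both E18.5 curves rose without a dip over these bins. The start site itself lay under a peak in 1654 and 1489 regions in the E14.5 libraries (75.6% and 68.1%) and in 1258 and 1091 in those of E18.5 (57.5% and 49.9%). In 971 regions it was covered in all 4 lists, in 208 in both E14.5 lists and neither E18.5 list, in 5 in the reverse, and in 485 in no list. The sequence around these start sites was richest in CpG in the first 100 bp downstream, with 8.16 CpG per 100 bp, against 1.10 at 5000 bp upstream and 1.21 at 5000 bp downstream.

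**Figure D3:**
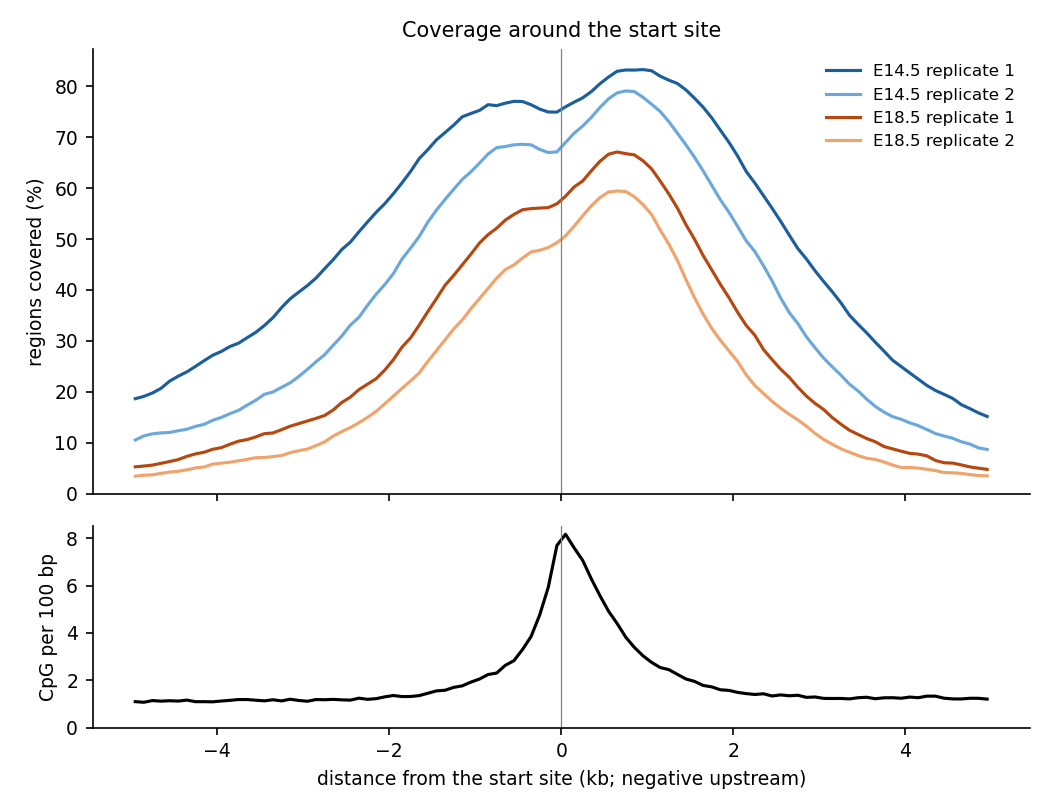
Percent of the 2188 regions covered by a peak at each distance from the start site (kb, 100 bp bins, negative upstream) in the 4 libraries (top), and CpG dinucleotides per 100 bp at the same positions (bottom). All 4 curves are highest 600 to 1000 bp downstream, and the E18.5 curves lie below the E14.5 curves.

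Both sides of the start site were shorter at E18.5. Upstream of it, coverage summed to 5.21 and 3.92 Mb (E14.5) against 2.70 and 2.04 Mb (E18.5), a change of -48.1% in the mean. Downstream it summed to 5.56 and 4.49 Mb against 3.33 and 2.67 Mb, a change of -40.2%. The upstream share of covered length was therefore 48.4% and 46.6% in the earlier libraries and 44.7% and 43.2% in the later ones, or 47.5 ± 1.27% against 44.0 ± 1.05% (SD, n = 2 each). The difference was -3.51 percentage points, and the stages did not overlap. The level depends on the start site used: with the 5 prime end of the gene as anchor, the share was 41.0% and 39.0% against 36.3% and 34.6%. The share rests on the peak positions that also chose the regions, so it is a description, as are the CpG density of covered sequence and the number of peaks per region. Without the first E14.5 library, with the regions chosen from the other 3 lists, the difference was -1.85 points. The share was also lower in the second library than in the first within each stage, by 1.79 points at E14.5 and 1.48 points at E18.5, and over the 4 libraries it followed the total covered length. Stage and covered length cannot be told apart in this comparison.

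In base pairs, the losses on the sides were closer than in percent. The median region lost 815 bp upstream and 800 bp downstream, the mean loss was 1005 bp upstream and 924 bp downstream, and 1078 regions lost more upstream and 1110 more downstream. Where the upstream part was called shorter and the downstream part was not, or the reverse, the counts were 494 and 460, with 978 regions shorter on both sides. In the 1145 regions with coverage on both sides in every list, the mean loss was 963 bp upstream and 965 bp downstream, and the share still moved from 46.9% and 46.2% to 45.0% and 44.1%. The upstream part was the shorter one at both stages: the median region had 2159.5 and 1614.5 bp upstream and 2443 and 1967 bp downstream in the E14.5 libraries, and 1018.5 and 698.5 bp upstream and 1379 and 1040.5 bp downstream in those of E18.5. In 917 regions every list held a single peak and the start site lay inside the merged region, though not always under each peak. There the upstream edge lay a median of 695 bp further downstream at E18.5, and the downstream edge 735.5 bp further upstream.

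Seen by distance, coverage near the start site was kept more often than coverage far from it, on both sides. This order is partly built in and is a description. Every region holds a peak in each list, and distance is counted from the start site nearest its middle. Within 1000 bp, mean coverage at E18.5 was 69.0% of that at E14.5 upstream and 77.4% downstream. From 1000 to 2000 bp these values were 52.7% and 63.9%, and from 2000 to 3000 bp 38.7% and 46.3%. Beyond 3000 bp the sides were nearly equal, at 35.6% and 36.5% and then 31.8% and 34.6%. Here all peaks within 5000 bp of the start site were counted, those of neighbouring regions included. Neighbouring regions need no peak at E18.5. The upstream share was lower in both E18.5 lists than in both E14.5 lists on 16 of 19 chromosomes.

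**Figure D4:**
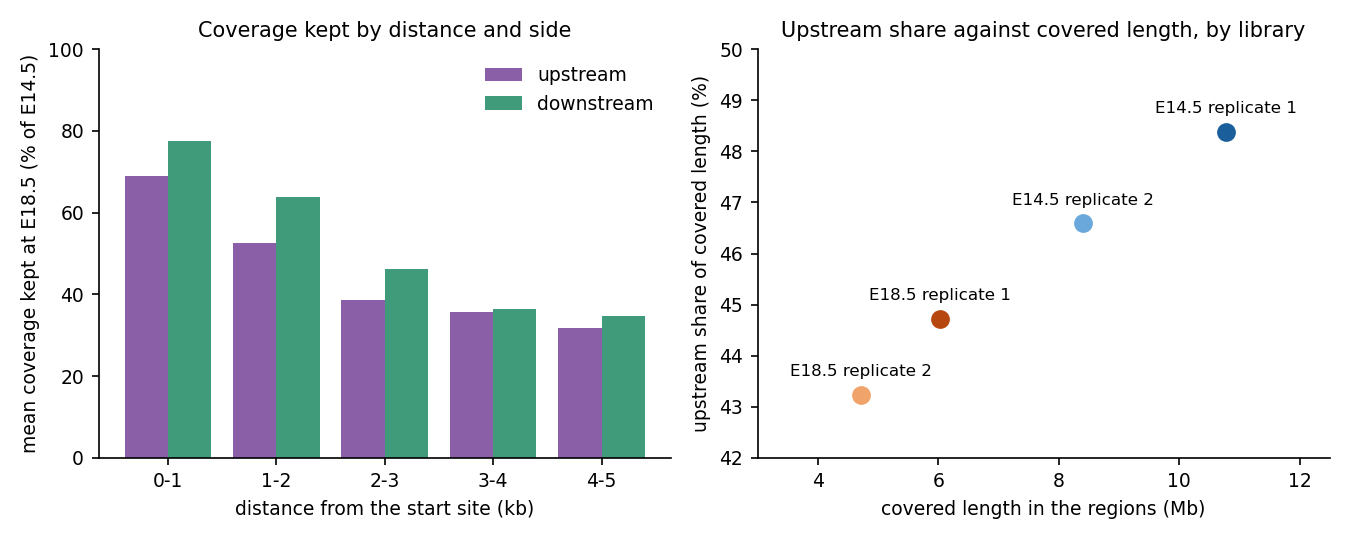
Mean coverage at E18.5 as percent of mean coverage at E14.5, by distance from the start site (kb) and side (left), and the upstream share of covered length (%, axis from 42 to 50) against total covered length (Mb) in each library (right). Coverage kept declines from 77.4% and 69.0% in the first 1000 bp to 34.6% and 31.8% in the last, and the share falls with covered length from 48.4% to 43.2%.

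The most one-sided losses show how the nearest start site sets the side. *Smu1* had 8609 and 6370 bp against 1963 and 1061 bp, and the whole mean loss of 5978 bp lay upstream. *Ttc8*, a Bardet-Biedl syndrome gene of the primary cilium, had 7455 and 5734 bp against 1280 and 258 bp, again with no covered base downstream. *Daglb*, *Usp16* and *Wdr36* were of the same kind, as was *Rhcg*, where the start site nearest the region is that of a transcript that begins inside the gene. In each of these 6 regions all covered bases lay on one side of the start site that named it.

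In other regions all or nearly all of the loss lay on the downstream side. *Sncb* had 6285 and 5903 bp against 1143 and 1078 bp, with 4984 bp lost downstream. *AI464131* had 6292 and 5381 bp against 1371 and 372 bp, with 4965 bp lost downstream and no covered base upstream. At *Mdh1b*, a malate dehydrogenase gene, 5087 bp were lost downstream, and the E14.5 values were far apart (9403 and 2716 bp). *Lrrc3c* lost 240 bp upstream and 4797 bp downstream.

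The sequence still covered at E18.5 was richer in CpG. In the E14.5 libraries covered sequence held 2.40 and 2.65 CpG per 100 bp, in those of E18.5 3.02 and 3.28, or 2.53 ± 0.182 against 3.15 ± 0.186 (SD, n = 2 each), where the 19 autosomes as a whole hold 0.828. The stages did not overlap. As with the upstream share, the order of the libraries was that of their covered length, within stages as well as between them. Sequence covered in all 4 lists amounted to 4.01 Mb in 2112 regions and held 3.42 CpG per 100 bp at a GC content of 53.5%. Sequence covered in both E14.5 lists and neither E18.5 list amounted to 2.09 Mb and held 1.76 CpG per 100 bp at a GC content of 48.6%.

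The difference was also present away from the start site. More than 1000 bp away from it, the kept sequence held 2.32 CpG per 100 bp and the lost sequence 1.28. Within single regions, 1115 had at least 500 bp of each kind, and in 938 of them (84.1%) the kept part had the higher CpG density, with medians of 3.31 and 1.26 per 100 bp. The windows of *AI464131* and *Rhcg* shown above have the same order, and those of *Smu1* the opposite one, but all 3 regions have less than 500 bp of kept sequence and are not among the 1115. Over their whole kept and lost sequence, CpG per 100 bp was 8.33 and 2.72 in *AI464131*. It was 1.57 and 1.45 in *Rhcg*, and 0.924 and 0.709 in *Smu1*, where the order was thus not that of the windows. The lost sequence lay upstream of the start site for 52.5% of its length and the kept sequence for 41.9%.

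The median change was smaller in regions whose peaks ranked higher in enrichment at E14.5. When the 2188 regions were divided into 5 groups by the rank of their strongest peak's fold enrichment within the E14.5 lists, the median change went from -58.1% in the lowest group through -54.1%, -47.4% and -40.4% to -32.8% in the highest, and the length covered in all 4 lists rose from 465.5 bp to 3066 bp. The share of regions called shorter did not follow the same order, at 72.4% in the lowest group and 85.4%, 87.7%, 84.9% and 85.8% in the others. Over regions, Spearman's correlation was 0.394 and Pearson's 0.136 (n = 2188, a description over regions that share their libraries). By CpG density within 500 bp of the start site the gradient was shallower, from -51.7% in the lowest group to -40.5% in the highest (Spearman 0.135). The groups by fold enrichment and by covered length rest on the same E14.5 lists as the change itself.

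In the gene lists that follow, the counts of shorter regions are to be read against the 83.2% shorter and the median change of -45.5% of all 2188 regions. Of 41 Fox genes, 8 lay at these regions and all 8 regions were shorter, from *Foxo6* (5439 and 7397 bp against 2429 and 2226 bp, -63.7%) to *Foxd2*, a forkhead gene of mesenchyme (7487 and 6903 bp against 6472 and 5902 bp, -14.0%). Of 18 Sox genes, 5 lay at 6 regions, 5 of them shorter. *Sox5*, a chondrogenic and neural factor, had 9697 and 7568 bp against 3111 and 2182 bp (-69.3%), and *Sox10*, the neural crest and glial factor, had 5888 and 7056 bp against 4558 and 3129 bp (-40.6%). *Gata3* was shorter (9013 and 7260 bp against 5345 and 7017 bp, -24.0%), whereas *Gata5* (8031 and 7239 bp against 7879 and 5142 bp) and *Tbx21*, the T-bet gene of T cells (6686 and 5444 bp against 6267 and 4696 bp), overlapped.

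Many homeobox genes fall outside the rule because they carry a wider peak. All 9 Pax genes and all 12 LIM homeobox genes lay at a region with a peak of 10000 bp or more, and none at the regions reported here. Of 116 other homeobox genes, 80 lay at such a wide region and 22 at 30 of the 2188 regions, of which 26 were shorter and 4 overlapped, with a median change of -33.4% beside -45.5% for all. *Satb1*, a chromatin organiser, was at the low end (5644 and 2841 bp against 1975 and 619 bp, -69.4%), and *Six4*, a muscle and sensory placode factor, at the high end (6100 and 6361 bp against 5835 and 6040 bp, -4.70%). At 18 regions of 18 bHLH genes, 17 were shorter. *Mesp2*, a somite segmentation factor, had 2688 and 2528 bp against 706 and 310 bp (-80.5%), *Myod1*, the myogenic determination factor, had 6316 and 5096 bp against 4104 and 3169 bp (-36.3%), and *Hey2*, a Notch effector, overlapped (2506 and 2047 bp against 1763 and 2321 bp). Of 10 nuclear receptor regions 9 were shorter, with *Ppara*, the fatty acid receptor, lowest (7959 and 5145 bp against 3504 and 1254 bp, -63.7%) and *Esrrg* overlapping (9593 and 7964 bp against 8254 and 7152 bp).

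Signalling lists held ligands, receptors and secreted antagonists, and their shares of shorter regions lay on both sides of the 83.2% of all regions. Of 17 regions of 16 Wnt pathway genes, 16 were shorter (94.1%), with a median change of -48.8%. *Sfrp2*, a secreted Wnt antagonist, had 4539 and 4332 bp against 1273 and 920 bp (-75.3%), and *Wnt7a*, a ligand, had 8037 and 6380 bp against 6185 and 5589 bp (-18.3%). All 12 Bmp and Tgf-beta regions were shorter, from *Gdf10* (8254 and 6630 bp against 2371 and 1542 bp, -73.7%) to *Bmp6* (4410 and 3392 bp against 3093 and 2709 bp, -25.6%). Of 11 Fgf regions 8 were shorter (72.7%) and 3 overlapped (*Fgf3*, *Fgf4* and *Fgf9*), while *Fgf12* had 8373 and 3732 bp against 1418 and 1978 bp (-71.9%). In the Hedgehog and Notch list 6 of 8 were shorter (75%). The receptor gene *Notch4* had 2349 and 2480 bp against 557 and 763 bp (-72.7%), and the ligand genes *Dhh* and *Jag2* overlapped.

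Genes of excitable cells supplied 4 of the lists. Potassium channel genes supplied 51 regions, of which 42 were shorter, 8 overlapped and 1, at *Kcna6*, was longer (3150 and 2714 bp against 3557 and 3359 bp, +17.9%). *Kcnd3*, a voltage-gated channel of heart and brain, was lowest (3251 and 2169 bp against 439 and 481 bp, -83.0%). Neurotransmitter receptor genes supplied 54 regions, 44 shorter and 10 overlapping. *Grm4*, a metabotropic glutamate receptor, had 4792 and 3940 bp against 900 and 204 bp (-87.4%), and *Grm6*, of the same family, had 7318 and 6138 bp against 6119 and 5618 bp (-12.8%). Of 20 sodium and calcium channel regions 16 were shorter, and of 21 axon guidance regions 18. Here *Ntn1*, a guidance cue of commissural axons, lay at 3 separate regions with changes of -69.3%, -59.0% and -38.6%. The list medians were -38.2%, -44.0%, -49.8% and -46.4%, and all 4 shares of shorter regions (82.4%, 81.5%, 80.0% and 85.7%) were close to the 83.2% of all regions.

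Genes of the dermis itself were present too. Of 29 genes used as dermal papilla markers (the papilla is the mesenchymal cluster that induces the hair follicle), 14 lay at 14 of these regions, and 13 of these were shorter (92.9%), with a median of -48.3%, beside 83.2% and -45.5% for all regions. *Prdm1* had 5721 and 2850 bp against 834 and 975 bp (-78.9%). *Alpl*, the alkaline phosphatase of the papilla, had 4083 and 4301 bp against 1939 and 432 bp (-71.7%), and the E18.5 replicates differed widely. *Rspo2*, an activator of Wnt signalling, had 5654 and 3715 bp against 1773 and 1392 bp (-66.2%). *Sox18* had 8051 and 6468 bp against 4290 and 3279 bp (-47.9%), and *Lamc3*, a laminin chain, had 9644 and 8270 bp against 5265 and 2569 bp (-56.3%). *Eya2* overlapped, with 9149 and 7058 bp against 7506 and 6301 bp (-14.8%).

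Of 14 collagen regions 13 were shorter (92.9%, beside 83.2% of all regions), with *Col6a5* lowest (2589 and 1306 bp against 667 and 204 bp, -77.6%) and *Col15a1* overlapping (3451 and 3949 bp against 3588 and 1747 bp). The adipogenic list supplied 5 regions, 4 of them shorter (80%), with a median change of -37.8%, beside 83.2% and -45.5% for all regions. *Zfp423*, a preadipocyte commitment factor, had 5440 and 4112 bp against 2646 and 2056 bp (-50.8%), and *Klf15* had 3596 and 3132 bp against 2513 and 590 bp (-53.9%). *Ebf3* overlapped, with 7349 and 6547 bp against 7961 and 7335 bp (+10.1%). Cadherin genes (11 of 11 regions shorter), solute carriers (54 of 69) and C2H2 zinc finger genes (25 of 31) had medians of -35.7%, -43.0% and -43.7%. No list was tested against the other regions.

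**Figure D5:**
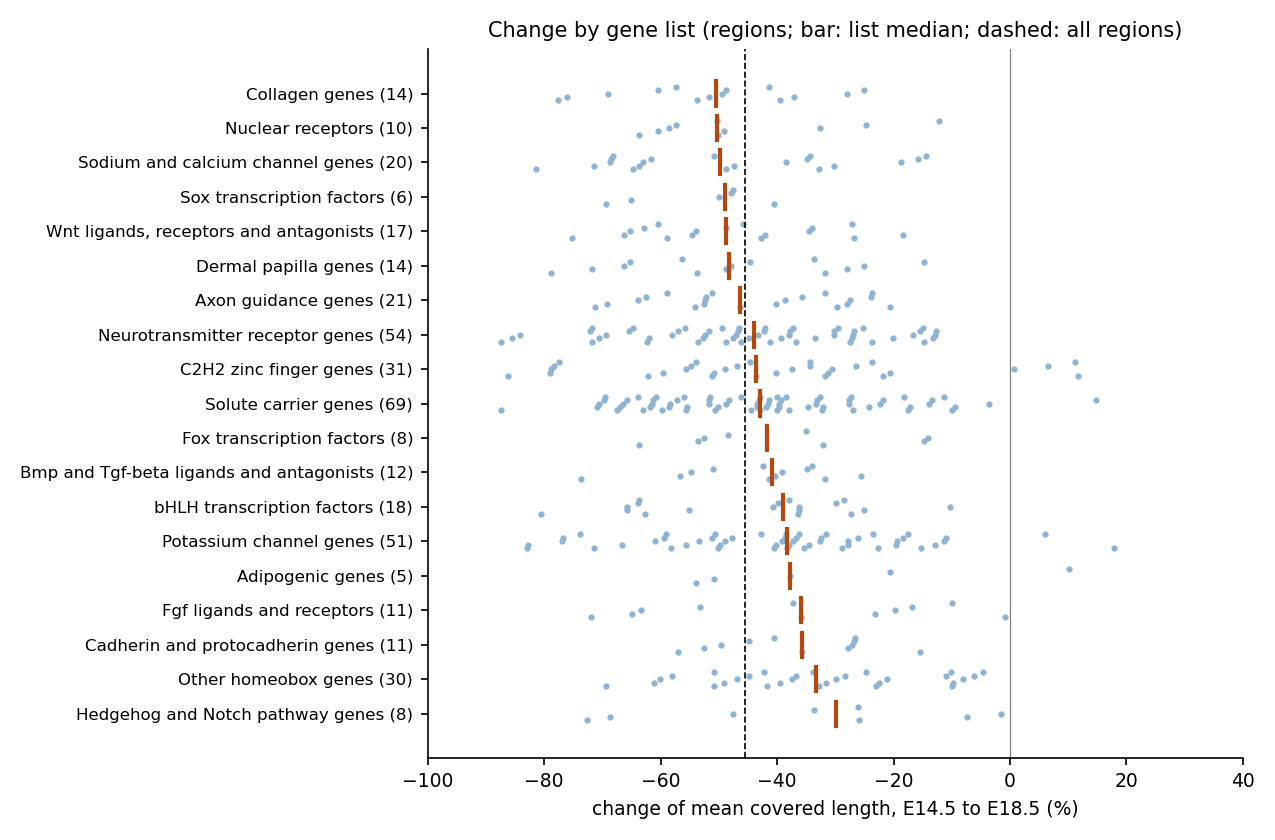
Percent change of mean covered length from E14.5 to E18.5 for each region (points) of the gene lists with at least 5 regions (number in brackets), with the list median (bar) and the median of all 2188 regions (dashed line, -45.5%). List medians lie between -50.5% (collagen genes) and -29.9% (Hedgehog and Notch pathway genes), and single regions spread far more widely than the medians.

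The number of separate peaks per region did not separate the stages. It averaged 1.02 and 1.29 in the E14.5 libraries and 1.28 and 1.20 in those of E18.5, and the first E14.5 library, with almost exactly 1 peak per region, stood apart from the other 3. In 1240 regions every list held exactly 1 peak, and the median change there was -42.7%. A single peak in both E14.5 lists and 2 or more in both E18.5 lists occurred in 83 regions. By chromosome, the median change ranged from -53.2% on chromosome 16 to -39.4% on chromosome 18.

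Beside the other regions with a peak in every list, the promoter regions reported here were intermediate in change and in the share called shorter. Of the 672 regions with a peak of 10000 bp or more, 516 also lay within 3000 bp of a start site. The 1368 distal regions changed by a median of -53.6% with 74.1% shorter, and the 672 regions with a wide peak by -35.1% with 90.0% shorter. In CpG they were highest, as merged promoter regions held 2.39 per 100 bp, distal regions 1.49 and wide regions 2.02, and the 3892 regions that had peaks only in the 2 E14.5 lists held 1.43. These 3 classes differ in the rule that made them and in length at E14.5, and the differences between them were not tested.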

How the data were processed

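H3K27me3 ChIP-seq was done on 2 libraries per stage. Per the labels and the study's methods, the authors aligned reads to mm10 (GRCm38) with Bowtie2 2.3.5.1 and called broad peaks in each library separately with MACS2 2.2.7.1 at a q-value of 0.01. The reduction in read depth that the study's methods describe names its E18.5 wild-type and *Kdm6b*-knockout samples. Whether it covers these libraries is not stated, and the control used for the calls is not given in the sources used here. Each deposited list gives start and end, a fold enrichment over local background, and -log10 p-values and q-values. The labels state sonication and an Ion Torrent library kit, which differs from the study's methods, so it is not settled that those methods describe these libraries in every step.

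Lists were merged (overlap of at least 1 bp) in Python 3.11.15 with pandas 2.3.3, and start sites were taken from all transcripts of protein-coding genes in GENCODE vM21. Exact permutation tests over libraries (scipy 1.17.1) were run on the upstream share, the CpG density of covered sequence and the peaks per region, but these measures come from the same peak positions that chose the regions, so their values are given as a description, without the p-values. CpG counts came from the GRCm38 RefSeq genome sequence. The steps were tested on simulated peak lists.

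The regions and the 23 gene lists were chosen with earlier results of these data known. Genes were named by rank: the 8 greatest decreases (mean of at least 2000 bp at E14.5), the 8 greatest increases, the 8 smallest changes (at least 4000 bp), the 6 largest excesses of loss on each side, list extremes, genes the study displays, and regions at the thresholds, without Gm and Rik symbols. Some items that met these rules are not reported here. *Rspo2*, *Ntn1*, *Myod1* and genes named beside a count of 5 or fewer were named after their values were seen. *Fer1l4*, *Fermt1*, *Grid2ip* and *Fstl4* matched list patterns by spelling and were then removed from those lists.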

Additional observations from a re-analysis of the deposited data

How the results depend on the processing

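Each result was recomputed under 16 alternatives. Covered length was lower at E18.5, the upstream share lower and CpG density higher in every one. Some alternatives could not alter some results. The 5 prime end of the gene as anchor leaves covered length and CpG density as they were. A replicate block leaves the differences in upstream share and CpG density as they were. Stricter choices moved the number of regions by more than 1.5 times: 511 regions, 411 of them shorter, at a -log10 q-value of at least 5, then 1432 and 1172 with peaks of at least 1000 bp, and 1192 and 961 with a limit of 5000 bp on peak width. These choices keep fewer peaks by construction. At a -log10 q-value of at least 5 the share of shorter regions was 80.4%, beside 84.4% of all regions with a peak in every list. With peaks of at least 1000 bp it was 81.8% beside 82.5%, and with the width limit of 5000 bp 80.6% beside 81.4%. The difference in peaks per region changed direction at a -log10 q-value of at least 5 (-0.0137) and with peaks within 1000 bp merged (-0.0014). The cause was not tested.

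Leaving out each library in turn, with regions chosen from the other 3 lists, gave 2206 to 2793 regions. The median change was -53.8 to -33.5%, the last without the first E14.5 library. Total covered length changed by -51.3 to -32.9%, the upstream share by -4.44 to -1.85 points, CpG density by 0.439 to 0.752 per 100 bp and peaks per region by 0.0390 to 0.222. With lists cut to the 7107 peaks of the shortest, the median change was -43.0% and the upstream share differed by -3.06 points. The labels number the replicates but do not tie equal numbers, and the deviations of equally numbered libraries correlated at 0.0654 over regions. With the replicate number as a replicate block, the median change was -44.1%. The upstream share differed by -3.51 points, a value that such a block cannot alter. Within both numbers 2021 regions were lower, by a less strict rule whose share over all regions was not computed. The lists hold no read counts, so the limit that depth sets on these lengths could not be computed from them.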
